A study of Mus musculus with 8 samples.

Results

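Chemokine receptors are G protein-coupled receptors that steer leukocytes along gradients of small secreted ligands. The genes described here are the 9 receptors that set most of the known traffic of regulatory T cells (Tregs), the CD4 T cells that depend on the transcription factor Foxp3. They were listed by name, with earlier results of these data known, and taken from a table of 20172 Ensembl identifiers. All 9 were present, and all 9 passed the filter on low values that left 13990 genes for testing. *Ccr7*, *Cxcr5* and *Cxcr4* were grouped as lymphoid-homing receptors. *Ccr2*, *Ccr4*, *Ccr6*, *Ccr8*, *Cxcr3* and *Cxcr6* were grouped as tissue-homing receptors.

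The samples were TNFR2+ and TNFR2- Tregs, with 4 RNA sequencing libraries (replicates 1 to 4) of each. TNFR2 is a receptor for the cytokine TNF, and *Tnfrsf1b* encodes it. CD4 T cells were enriched from spleens of female *Foxp3* YFP-cre mice, in which a Cre recombinase and a yellow fluorescent protein are made from the *Foxp3* locus, and YFP+ cells were sorted by surface TNFR2. Both groups carried this allele, neither received any treatment that the labels name, and the labels give no age. The labels do not state whether the 4 libraries of a group came from separate mice, and the study, which gives its sample number beside the word mice, does not say whether animals were pooled or split, so the p-values measure the spread between these libraries only. The comparison asks how splenic Tregs with and without surface TNFR2 differ, here in the receptors that guide migration. No other tissue was sequenced, so the words lymphoid-homing and tissue-homing refer to where the known ligands are made and not to where these cells went.

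As background, naive and resting T cells enter lymph nodes with the help of CCR7 and leave them by following sphingosine-1-phosphate with S1PR1. Tregs that have been activated by antigen lose much of this equipment and gain receptors for ligands made in skin, gut, lung, inflamed tissue or tumors. CXCR5 leads T cells into B cell follicles, and CXCR4 holds cells near stroma that makes CXCL12, in bone marrow and in lymphoid organs.

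The sum of normalized counts ranged from 9576920 to 11492762, and the estimated depth was between 9100000 and 12110000 reads. The sort was visible in the RNA, since *Tnfrsf1b* had 3148, 1840, 2631 and 2383 normalized counts in TNFR2+ replicates 1 to 4 and 1266, 1563, 1177 and 1277 in TNFR2- replicates 1 to 4. *Foxp3* was high in every library, from 2812 to 3313 in the TNFR2+ and from 3292 to 4033 in the TNFR2- libraries (log2 fold change −0.23, adjusted p = 0.232, limma). The 8 Treg markers checked (*Foxp3*, *Il2ra*, *Ctla4*, *Ikzf2*, *Cd4*, *Cd3e*, *Cd3g* and *Cd5*) were all present. On the second principal component of the genes tested, which held 16.7% of the variance, TNFR2- replicate 3 lay at 91.3, far above the other 7 libraries. Values without that library are therefore given where a call that was checked this way changed. The check covered the receptors, *Tnfrsf1b*, *Foxp3*, *Ccr9*, *Cxcl10* and the genes of the wider lists past the threshold, but not the other cell type markers.

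Of the 9 receptors, 4 were higher in TNFR2+ Tregs (*Ccr8*, *Cxcr3*, *Cxcr4* and *Ccr6*), 1 was lower (*Ccr7*) and 4 did not pass the threshold (*Ccr4*, *Cxcr5*, *Ccr2* and *Cxcr6*). Over all genes tested, 4.52% were called higher and 3.39% lower at an adjusted p under 0.05 (limma on log2(normalized count + 1), two-sided, Benjamini-Hochberg adjustment over all 13990 genes). In the same 5 receptors the 4 libraries of one group did not overlap with the 4 of the other, with TNFR2+ Tregs above in 4 and below in 1. Among all genes tested, 8.08% had every TNFR2+ library above every TNFR2- library and 7.29% had every one below. The median log2 fold change was 0.68 over the 9 receptors, against −0.01 over all genes tested. All differences below are TNFR2+ minus TNFR2- on this log2 scale, which understates the change of genes with low values.

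**Figure D1:**
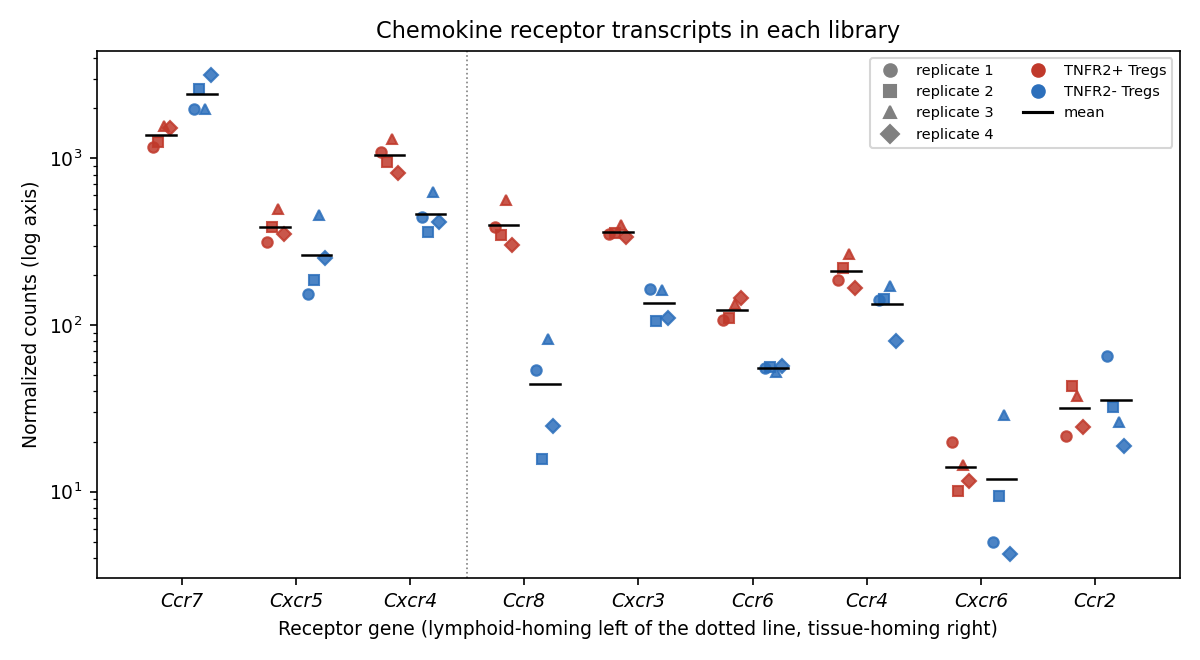
Normalized counts (log axis) of the 9 receptors in each of the 8 libraries, red for TNFR2+ and blue for TNFR2- Tregs, with a marker shape for each replicate number and a black bar for the mean of 4. The red points lie above all blue points for Cxcr4, Ccr8, Cxcr3 and Ccr6, and below all blue points for Ccr7.

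The start regions of the 4 receptors that were higher are shown here so that the genes can be placed in the genome and compared. They are 300-base RefSeq windows of GRCm38.p6, from 250 bases before to 50 bases after an annotated start, written 5′ to 3′ along the gene. *Ccr8* lies at chr9:120091883-120092182 on the plus strand, *Cxcr3* at chrX:101734098-101734397 on the minus strand and *Cxcr4* at chr1:128592250-128592549 on the minus strand. *Ccr6* has 2 annotated starts, with windows at chr17:8235793-8236092 and chr17:8242276-8242575 on the plus strand. Capitals mark matches to short motifs of transcription factors active in T cells.
Ccr8: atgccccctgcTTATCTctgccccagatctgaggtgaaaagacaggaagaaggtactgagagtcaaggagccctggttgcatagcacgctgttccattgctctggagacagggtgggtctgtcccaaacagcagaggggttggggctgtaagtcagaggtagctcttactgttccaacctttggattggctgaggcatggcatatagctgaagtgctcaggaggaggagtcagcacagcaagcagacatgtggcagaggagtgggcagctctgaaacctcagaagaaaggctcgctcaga
Cxcr3: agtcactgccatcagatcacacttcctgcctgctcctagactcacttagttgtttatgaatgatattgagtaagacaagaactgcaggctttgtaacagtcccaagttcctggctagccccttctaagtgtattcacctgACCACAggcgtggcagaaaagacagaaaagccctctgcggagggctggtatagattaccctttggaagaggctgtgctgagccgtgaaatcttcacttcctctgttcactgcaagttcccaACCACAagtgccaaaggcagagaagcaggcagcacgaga
Cxcr4: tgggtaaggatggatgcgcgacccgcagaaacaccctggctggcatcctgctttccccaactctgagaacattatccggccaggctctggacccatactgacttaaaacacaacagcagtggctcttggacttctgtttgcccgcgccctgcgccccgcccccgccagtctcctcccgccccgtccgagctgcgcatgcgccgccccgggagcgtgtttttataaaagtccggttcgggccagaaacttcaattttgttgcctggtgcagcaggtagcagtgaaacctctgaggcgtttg
Ccr6, first start: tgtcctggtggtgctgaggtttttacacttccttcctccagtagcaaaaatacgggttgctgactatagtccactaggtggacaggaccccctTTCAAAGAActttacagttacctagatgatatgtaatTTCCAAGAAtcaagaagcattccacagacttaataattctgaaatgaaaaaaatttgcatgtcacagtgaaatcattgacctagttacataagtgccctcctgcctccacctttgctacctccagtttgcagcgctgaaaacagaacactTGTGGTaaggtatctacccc
Ccr6, second start: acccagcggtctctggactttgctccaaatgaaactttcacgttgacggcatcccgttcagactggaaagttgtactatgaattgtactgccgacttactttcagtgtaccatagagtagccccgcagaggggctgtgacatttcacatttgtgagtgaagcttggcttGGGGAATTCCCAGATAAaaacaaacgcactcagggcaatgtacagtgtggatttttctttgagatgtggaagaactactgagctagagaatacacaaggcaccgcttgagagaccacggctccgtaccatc

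In all, 7 of the 9 receptors had such windows, 8 in number, and 7 motifs were searched on both strands. In 7 of the 8 windows the last 25 bases occurred in an annotated transcript of the gene. The STAT motif was taken as TTCNNNGAA and matched 8.30% of all 32851 windows of this length. The letters for AP-1 were TGANTCA, found in 7.81% of windows, and those for forkhead factors were TGTTTAC, found in 3.65%. For RUNX factors the letters TGTGGT occurred in 16.8% of windows, and for KLF factors the letters CCNCACCC occurred in 16.6%. GATA factors were represented by the letters AGATAA, present in 11.2%, and NF-kappaB by its consensus, present in 4.51%. The *Ccr8* window held 1 GATA match on the minus strand, at position −239 from the start. The *Cxcr3* window held 2 RUNX matches on the minus strand, which read ACCACA along the gene, and the first *Ccr6* window held 2 STAT matches and 1 RUNX match. The second *Ccr6* window held overlapping NF-kappaB matches, followed without a gap by a GATA match, so both appear there as a single run of capitals. The *Cxcr4* window held no match to any of the 7 and stood out in its base composition, with 59.3% GC and 20 CG pairs, against 2 to 10 CG pairs in the other 4 windows printed and a median GC of 52.7% over all windows. No motif was common to the windows of these 4 receptors. Across the 8 windows, RUNX and GATA each matched in 3, STAT, AP-1, KLF and NF-kappaB each in 1, and forkhead in 0. A match describes the letters only, since no binding was measured.

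*Ccr8* encodes the receptor for CCL1, found on Tregs of skin and tumors. Its gene covers chromosome 9 from 120092114 to 120094906 on the plus strand and has 1 annotated transcript. *Ccr8* had 389, 345, 564 and 301 normalized counts in TNFR2+ replicates 1 to 4, and 53.8, 15.7, 82.0 and 24.7 in TNFR2- replicates 1 to 4. The lowest TNFR2+ library was far above the highest TNFR2- library. The means were 400 ± 115 and 44.1 ± 30.1 (SD, n = 4 each), a ratio of 9.07, and the change was 3.38 on the log2 scale (SE 0.45, 95% interval 2.41 to 4.35, adjusted p = 0.000722). This was rank 71 among the log2 fold changes of the 13990 genes tested, counted from the highest. The exact two-sided permutation test gave p = 0.0286, the smallest that 4 libraries against 4 allow, and it gave the same p for the other 4 receptors whose groups did not overlap.

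TNFR2- Tregs were not uniform in *Ccr8*. Replicates 1 and 3 had more than replicates 2 and 4, and the SD was 68.3% of the mean, against 28.8% in TNFR2+ Tregs. *Cxcr3*, which had 165 and 162 normalized counts in TNFR2- replicates 1 and 3, also had less in replicates 2 and 4, and *Ccr7* had less in replicates 1 and 3. *Tnfrsf1b* did not follow this order, as its highest TNFR2- value was in replicate 2, where *Ccr8* was lowest. The split between replicates 1 and 3 and replicates 2 and 4 was not particular to these receptors. On the first principal component of the genes tested (29.4% of the variance), TNFR2- replicates 1 and 3 lay at 34.0 and 26.7. TNFR2- replicates 2 and 4 lay at 76.0 and 60.9, farther from the TNFR2+ libraries, which lay at −71.1 to −27.6. Without TNFR2- replicate 3 the log2 fold change of *Ccr8* was 3.76, and over the 8 fits with 1 library left out it lay between 2.99 and 3.76 and always passed the threshold.

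*Cxcr3* encodes the receptor for CXCL9 and CXCL10, which draws T cells into sites of type 1 inflammation. It lies on chromosome X from 101731535 to 101734269 on the minus strand. *Cxcr3* had 353, 358, 397 and 338 normalized counts in TNFR2+ replicates 1 to 4, and 165, 105, 162 and 111 in TNFR2- replicates 1 to 4. The TNFR2+ libraries were nearly level, with an SD of 6.90% of the mean. The means were 361 ± 24.9 and 136 ± 31.9 (SD, n = 4 each), and the change was 1.44 on the log2 scale (SE 0.23, adjusted p = 0.00191).

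*Ccr6* encodes the receptor for CCL20, used by T cells of the gut and of barrier surfaces. It lies on chromosome 17 from 8236043 to 8257141 on the plus strand and has 9 annotated transcripts. *Ccr6* had 107, 111, 133 and 145 normalized counts in TNFR2+ replicates 1 to 4, and 55.1, 55.9, 52.4 and 56.9 in TNFR2- replicates 1 to 4. The TNFR2- libraries were all but equal, and each TNFR2+ library was well above them. The means were 124 ± 18.3 and 55.1 ± 1.91 (SD, n = 4 each), and the change was 1.14 on the log2 scale (SE 0.29, adjusted p = 0.0285). This call was close to the threshold, since it was kept in 2 of the 8 fits that left out a library, with an adjusted p of up to 0.0826 (without TNFR2+ replicate 4). The log2 fold change itself moved little in those fits, between 1.06 and 1.21.

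*Cxcr4* encodes the receptor for CXCL12. It lies on chromosome 1 from 128588199 to 128592293 on the minus strand. *Cxcr4* had 1097, 948, 1309 and 819 normalized counts in TNFR2+ replicates 1 to 4, and 444, 364, 627 and 413 in TNFR2- replicates 1 to 4. Replicate 3 was the highest in both groups, and the groups did not overlap. The change was 1.18 on the log2 scale (SE 0.20, adjusted p = 0.00300), and the call held in all 8 fits that left out a library.

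*Ccr7* encodes the receptor for CCL19 and CCL21, which leads T cells into lymph nodes and into the T cell zone of the spleen. It lies on chromosome 11 from 99144196 to 99155077 on the minus strand and has 1 annotated transcript. *Ccr7* had 1172, 1250, 1574 and 1526 normalized counts in TNFR2+ replicates 1 to 4, and 1974, 2609, 1992 and 3178 in TNFR2- replicates 1 to 4. It was the only one of the 9 with every TNFR2+ library below every TNFR2- library. The means were 1381 ± 199 and 2438 ± 575 (SD, n = 4 each), so TNFR2- Tregs had 1.77 times as much, and the change was −0.80 on the log2 scale (SE 0.17, 95% interval −1.17 to −0.44, adjusted p = 0.0109). This call held in all 8 fits that left out a library, but not when variances were moderated without an intensity trend (adjusted p = 0.0849).

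The lymphoid-homing receptors did not move together. *Ccr7* fell, *Cxcr4* rose, and *Cxcr5*, the receptor for CXCL13, did not pass the threshold. *Cxcr5* had 314, 389, 499 and 353 normalized counts in TNFR2+ replicates 1 to 4, and 154, 186, 454 and 253 in TNFR2- replicates 1 to 4. TNFR2- replicate 3 lay within the TNFR2+ range and the other TNFR2- libraries lay below it. The log2 fold change was 0.67 (95% interval 0.02 to 1.33, adjusted p = 0.201), and it became 0.98 (adjusted p = 0.0247) without TNFR2- replicate 3, so this call depended on 1 library. The *Cxcr5* gene (chromosome 9 from 44511787 to 44561877, minus strand) shares exon bases with *Bcl9l* on the opposite strand. The median log2 fold change of the 3 lymphoid-homing receptors was 0.67, and it was −0.06 when *Cxcr4* was counted with the tissue-homing receptors.

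The remaining tissue-homing receptors did not pass the threshold. *Ccr4*, the receptor for CCL17 and CCL22 of skin and dendritic cells, had 187, 221, 265 and 167 normalized counts in TNFR2+ replicates 1 to 4, and 140, 143, 172 and 80.3 in TNFR2- replicates 1 to 4. Only TNFR2- replicate 3 reached into the TNFR2+ range, and the log2 fold change was 0.68 (95% interval 0.06 to 1.29, adjusted p = 0.172). The gene lies on chromosome 9 from 114490316 to 114504916 on the minus strand.

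*Ccr2*, the receptor for CCL2 that is best known on monocytes, had 21.6, 43.0, 37.6 and 24.3 normalized counts in TNFR2+ replicates 1 to 4, and 65.0, 32.3, 26.3 and 18.9 in TNFR2- replicates 1 to 4. *Cxcr6*, the receptor for CXCL16, had 19.9, 10.2, 14.5 and 11.53 in TNFR2+ replicates 1 to 4, and 5.00, 9.36, 28.9 and 4.23 in TNFR2- replicates 1 to 4. In both genes the groups overlapped, and the spread within TNFR2- Tregs was wide. The log2 fold changes were −0.07 for *Ccr2* (95% interval −1.19 to 1.04, adjusted p = 0.955) and 0.56 for *Cxcr6* (95% interval −1.13 to 2.24, adjusted p = 0.725). These intervals leave room for a 2-fold difference in either direction in both genes, so a change of that size was not excluded. *Ccr2* covers chromosome 9 from 124101950 to 124113557 and *Cxcr6* from 123806475 to 123811760, both on the plus strand, and *Cxcr6* overlaps *Fyco1* on the opposite strand without sharing exon bases.

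The median log2 fold change of the 6 tissue-homing receptors was 0.91, with 3 higher, 0 lower and 3 not past the threshold. In bulk samples such as these, fewer cells of a type and less RNA per cell cannot be told apart, so a mean can stand for a change in all cells or in some of them.

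**Figure D2:**
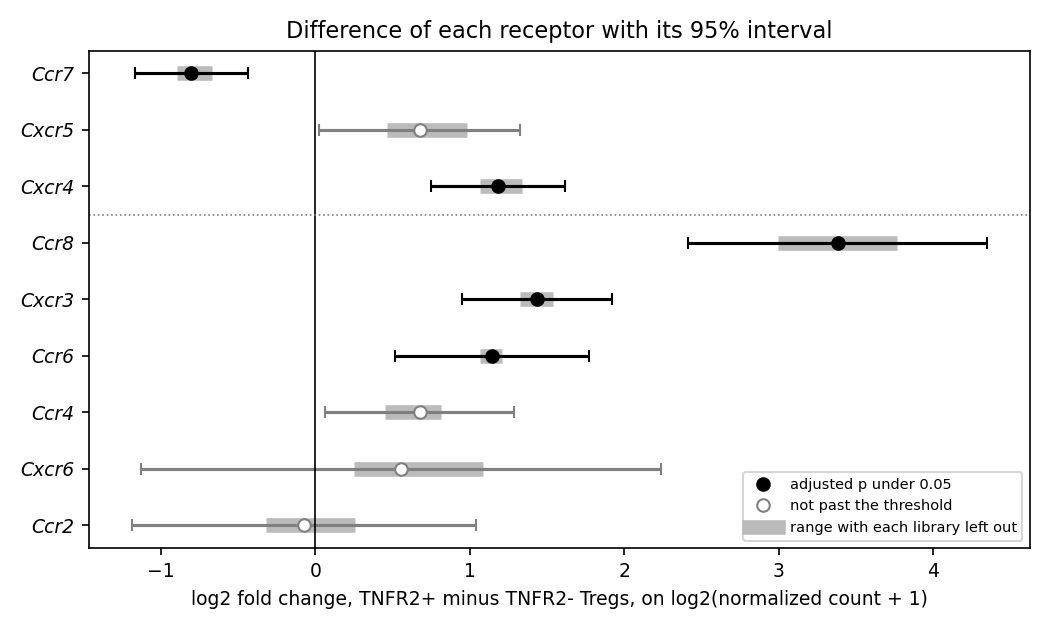
Log2 fold change (TNFR2+ minus TNFR2-) of each receptor with its 95% interval, filled where the adjusted p was under 0.05, and a grey band for the range over the fits with 1 of the 8 libraries left out. Ccr7 lies to the left of 0 at −0.80, Ccr8 lies farthest to the right at 3.38, and the intervals of Cxcr6 and Ccr2 include 0.

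The order of the receptors by level was compared per length, as normalized counts per kilobase of exon. In TNFR2- Tregs *Ccr7* stood alone at the top with a mean of 1233 per kilobase, above *Cxcr4* at 255, and no library of one reached those of the other. *Cxcr5* at 78.6 and *Cxcr3* at 78.3 followed and overlapped, and then came *Ccr4* at 43.4, *Ccr8* at 37.5 and *Ccr6* at 23.7, each overlapping with its neighbor. In TNFR2+ Tregs *Ccr7* was still first at 698 per kilobase, but its range overlapped with that of *Cxcr4* at 577. *Ccr8*, rank 6 in TNFR2- Tregs, was at rank 3 in TNFR2+ Tregs with 340 per kilobase, and it overlapped with *Cxcr4*. *Cxcr3* at 209, *Cxcr5* at 117, *Ccr4* at 68.0 and *Ccr6* at 53.4 followed, of which *Ccr4* and *Ccr6* overlapped. *Cxcr6* and *Ccr2* were lowest in both groups, between 4.68 and 7.27 per kilobase.

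The ratio of *Ccr8* to *Ccr7* normalized counts within a library gives the same contrast without a scaling factor between libraries. It was 0.332, 0.276, 0.358 and 0.197 in TNFR2+ replicates 1 to 4, and 0.0273, 0.00602, 0.0412 and 0.00777 in TNFR2- replicates 1 to 4. The groups were clearly apart. The ratio of *Cxcr4* to *Ccr7* was 0.537 to 0.936 in the TNFR2+ libraries and 0.130 to 0.315 in the TNFR2- libraries.

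**Figure D3:**
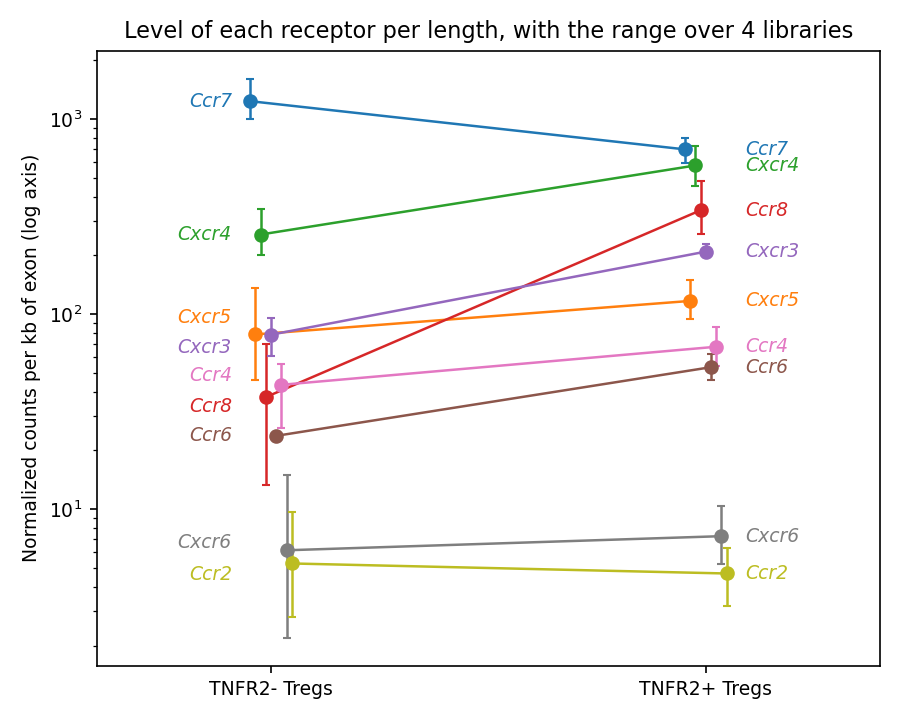
Mean normalized counts per kilobase of exon (log axis) of each receptor in TNFR2- and TNFR2+ Tregs, with bars from the lowest to the highest of 4 libraries; points are shifted sideways so that bars can be told apart. Ccr7 is first in both groups, and Ccr8 goes from 37.5 to 340 and crosses the lines of Ccr4, Cxcr5 and Cxcr3.

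Among chemoattractant receptors beyond these 9, none passed the threshold as higher. Of the 28 genes of the wider family, 21 had values and 17 were tested, and 4 were higher (all among the 9) and 3 lower. Without the 9 receptors, 0 of 8 were higher and 2 were lower, with a median of −0.51 (limma; the same fit called 633 of all genes higher and 474 lower, and 3211 genes had an unadjusted p under 0.05). One of the 2 was *Gpr183*, the oxysterol receptor that places lymphocytes at the edge of follicles. It had 536, 594, 587 and 742 normalized counts in TNFR2+ replicates 1 to 4 and 811, 1050, 878 and 1330 in TNFR2- replicates 1 to 4, with no overlap (log2 fold change −0.71, adjusted p = 0.0283). The other was *Xcr1*, best known on cross-presenting dendritic cells, which was nearly level in TNFR2+ Tregs, between 130 and 143, and ranged from 193 to 347 in TNFR2- Tregs (log2 fold change −0.83, adjusted p = 0.0498). Both calls were close to the threshold, since *Gpr183* kept its call in 3 and *Xcr1* in 1 of the 8 fits that left out a library. Without TNFR2- replicate 3, *Xcr1* was at −0.66 (adjusted p = 0.101).

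*Ccr9*, the receptor for CCL25 of small intestine and thymus, had 11.4, 16.5, 6.34 and 6.31 normalized counts in TNFR2+ replicates 1 to 4 and 58.4, 27.3, 40.1 and 35.2 in TNFR2- replicates 1 to 4. The groups did not overlap, but the adjusted p was 0.0602 (log2 fold change −1.94), and 0.0351 without the intensity trend.

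On chromosome 9, which carries 5 of the 9 receptors, neighbors had different values. *Ccr8* lies 22.2 kb beyond *Cx3cr1*, whose log2 fold change was −0.45 (adjusted p = 0.702). Farther along, the lowest coordinate of *Xcr1* (minus strand) lies 45.8 kb, and that of *Ccr2* 295 kb, after that of *Cxcr6*. Of these 3 genes *Xcr1* alone passed the threshold.

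**Figure D4:**
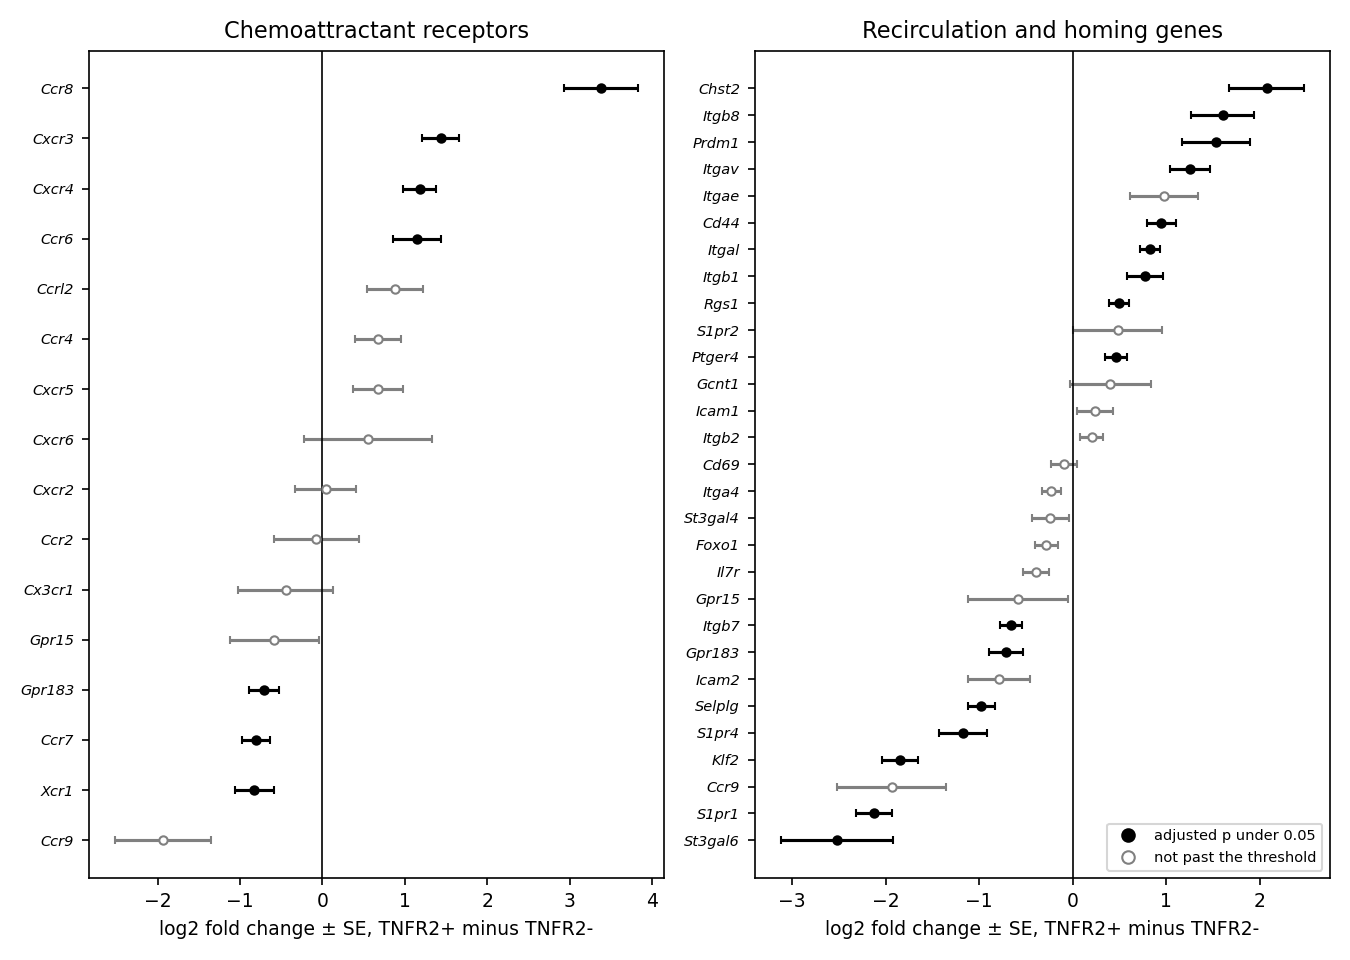
Log2 fold change ± standard error (TNFR2+ minus TNFR2-) of chemoattractant receptors (left, 16 shown) and recirculation and homing genes (right, 29 shown), ordered by value and filled where the adjusted p was under 0.05. Ccr8 at 3.38 is highest on the left, and St3gal6, S1pr1 and Klf2 are among the lowest on the right.

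Among 33 genes of recirculation and homing, 31 had values and 30 were tested. Of the 30, 9 were higher, 8 lower and 13 not past the threshold (median log2 fold change −0.16). The list shares *Ccr9*, *Gpr15* and *Gpr183* with the wider receptor family and *Rgs1* with the signalling genes below. The calls of *Gpr183* and *Rgs1* are thus counted in both lists that hold them. Over all genes tested, 4.52% were higher and 3.39% lower. In this list the genes that work beside CCR7 were among those that fell. *S1pr1*, the exit receptor, had 488, 620, 586 and 853 normalized counts in TNFR2+ replicates 1 to 4 and 2659, 2655, 2124 and 3644 in TNFR2- replicates 1 to 4 (log2 fold change −2.12, adjusted p = 7.90e-05). *Klf2*, a transcription factor known to drive *S1pr1*, fell by 1.85 on the log2 scale (adjusted p = 0.000244). In TNFR2- Tregs both *Klf2* and *Ccr7* were higher in replicates 2 and 4 than in replicates 1 and 3. This split was also seen on the first principal component. *S1pr1* did not follow it, since its replicate 2 was not above its replicate 1.

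*S1pr4* (log2 fold change −1.17, adjusted p = 0.0140), another sphingosine-1-phosphate receptor, was also lower. So were *Selplg*, the P-selectin ligand, at −0.98 (adjusted p = 0.00154), and *Itgb7*, the beta7 integrin chain of gut homing, at −0.66 (adjusted p = 0.00402). *St3gal6*, a sialyltransferase that helps to build selectin ligands, had only 3.01 to 13.2 normalized counts in the TNFR2+ group and 40.8 to 52.4 in the TNFR2- group (log2 fold change −2.52, adjusted p = 0.0204).

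The genes that rose included 5 that encode adhesion molecules (*Itgb8*, *Itgav*, *Itgal*, *Itgb1* and *Cd44*). *Chst2*, a carbohydrate sulfotransferase, had 515, 517, 656 and 379 normalized counts in TNFR2+ replicates 1 to 4 and 166, 70.5, 271 and 64.9 in TNFR2- replicates 1 to 4 (log2 fold change 2.07, adjusted p = 0.00622). Like *Ccr8* it was higher in TNFR2- replicates 1 and 3 than in replicates 2 and 4. The integrin chains *Itgb8* at 1.603 (adjusted p = 0.0111) and *Itgav* at 1.26 (adjusted p = 0.00339), which pair to activate TGF-beta, both rose. *Itgal*, the LFA-1 chain, rose by 0.83 (adjusted p = 0.000733) and *Cd44*, the hyaluronan receptor of antigen-experienced T cells, by 0.95 (adjusted p = 0.00266). *Prdm1*, which encodes the effector Treg factor Blimp-1, was at 1.53 (adjusted p = 0.0210), although TNFR2+ replicate 4 at 207 lay below TNFR2- replicate 3 at 258. *Itgb1* rose by 0.77 (adjusted p = 0.0259) and *Ptger4*, a prostaglandin E2 receptor, by 0.47 (adjusted p = 0.0293). Of these calls, *Prdm1*, *Itgb1* and *Ptger4* each held in 3 and *St3gal6* in 4 of the 8 fits that left out a library. Without the intensity trend, 2 genes of the list were higher (*Cd44* and *Itgal*) and 6 lower, 1 of which was *Ccr9*.

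Of 34 chemokine ligand genes, 17 had values and 8 were tested. Against 4.52% higher and 3.39% lower over all genes tested, 1 of the 8 was higher and 0 lower (median log2 fold change 0.70). The 1 was *Cxcl2*, a neutrophil attractant, with 95.8, 105, 104 and 45.9 normalized counts in TNFR2+ replicates 1 to 4 and 25.7, 25.8, 24.4 and 2.22 in TNFR2- replicates 1 to 4 (log2 fold change 2.44, adjusted p = 0.0439). Replicate 4 was the lowest in both groups, and the call held in 3 of the 8 fits that left out a library. Of the ligands of the 9 receptors, *Cxcl10*, a ligand of CXCR3, alone passed the filter on low values. It had 320, 472, 438 and 250 in TNFR2+ replicates 1 to 4 and 144, 134, 338 and 57.8 in TNFR2- replicates 1 to 4, with overlap through TNFR2- replicate 3 (log2 fold change 1.35, adjusted p = 0.0696). It passed the threshold without that library (1.78, adjusted p = 0.00714), and also with array weights (adjusted p = 0.0344). *Ccl1*, *Cxcl11*, *Cxcl12* and *Cxcl16*, ligands of CCR8, CXCR3, CXCR4 and CXCR6, had values under the filter, with at most 8.83 normalized counts in any library.

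Genes that carry or end the signal of these receptors were listed by 49 symbols, which include older names of *Grk2*, *Grk3* and *Ripor2*. Of the list, 43 genes were tested, and 4 were higher, 5 lower and 34 not past the threshold (median log2 fold change 0.06). Over all genes tested, 4.52% were higher and 3.39% lower. Without the intensity trend, 0 genes of this list were higher and 1 was lower (*Ripor2*), so the other calls depend on that setting. The genes that rose included regulators of G protein signalling, which shorten the signal. *Rgs16* had 2799, 2442, 1972 and 1429 normalized counts in TNFR2+ replicates 1 to 4 and 932, 682, 941 and 400 in TNFR2- replicates 1 to 4 (log2 fold change 1.58, adjusted p = 0.00308). *Rgs2* rose by 0.71 (adjusted p = 0.00708), *Rgs1* by 0.50 (adjusted p = 0.0122) and the small GTPase gene *Rap1a*, which acts in integrin activation, by 0.67 (adjusted p = 0.0295, a call that held in 3 of the 8 fits that left out a library). Those that fell act close to the receptor or in motility. *Ripor2*, a RhoA inhibitor, had 1975, 2097, 1596 and 1860 normalized counts in TNFR2+ replicates 1 to 4 and 4922, 5443, 3661 and 4995 in TNFR2- replicates 1 to 4 (log2 fold change −1.33, adjusted p = 0.000244). *Pik3r5*, a subunit of the PI3K gamma enzyme that G proteins switch on, was at −1.78 (adjusted p = 0.00773), *Grk6*, a receptor kinase, at −0.66 (adjusted p = 0.00483), *Dock2*, the Rac activator of lymphocyte migration, at −0.62 (adjusted p = 0.00177), and *Pik3cd* at −0.58 (adjusted p = 0.00791). *Gnai2*, the inhibitory G protein subunit that these receptors use, had 3941, 4243, 4417 and 4507 in TNFR2+ replicates 1 to 4 and 3869, 3935, 4234 and 4424 in TNFR2- replicates 1 to 4 (log2 fold change 0.06, 95% interval −0.16 to 0.27).

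Genes with the profile most like that of each receptor were looked for by the root-mean-square difference of log2 values over the 8 libraries, each profile set to mean 0, among 9203 protein-coding genes with a mean of at least 50. The nearest to *Ccr8* were *Actg2* (difference 0.319), *Dusp14* (0.440) and *Ptpn5* (0.441). The nearest to *Ccr7* were *Il17ra* (0.1004), *Ezr* (0.102), which encodes the membrane linker ezrin, and *Lrrc8a* (0.113). *Cxcr3* was closest to the replication gene *Mcm6* (0.0885), then to *Tiam1* and *Hist1h2bf*. *Cxcr4* was closest to *Cd82* (0.112), *Blcap* and *H1f0*, and *Ccr6* to *Zc3h12d* (0.177), *Izumo1r* and *Vcpkmt*. *Ccr4* was closest to *Magee1* (0.155), *Anxa4* and *Hif1a*, and *Cxcr5* to *D430019H16Rik* (0.153), *Ralgds* and *Zcchc18*. The nearest to *Ccr2* were *Ska3* (0.241), *Slc2a9* and *Xrn1*, and to *Cxcr6* were *Zfp808* (0.255), *Cacfd1* and *Nudt19*, with larger differences for these low genes. The measure includes the difference between the groups, so it describes likeness and supports nothing else.

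Markers of other cells were measured beside these values, because *Cxcr5*, *Cxcr4*, *Ccr6* and *Ccr7* are also made by B cells and *Ccr2* by monocytes. Of 17 B cell markers 15 had values, and their sum was 4893 to 7077 normalized counts in the TNFR2+ and 2016 to 3371 in the TNFR2- libraries. Most of it was *Ighm*, with 3433 to 5576 and 1583 to 2404, and *Cd74*, with 797 to 994 and 172 to 391. Both *Ighm* (log2 fold change 1.27, adjusted p = 0.000745) and *Cd74* (1.72, adjusted p = 0.000912) were higher in TNFR2+ Tregs. *Cd22* did not overlap, at 273 to 350 and 54.7 to 223, but did not pass the threshold (adjusted p = 0.0612). *H2-Aa* and *H2-Eb1*, under the filter, had 5.12 to 22.0 and 3.45 to 17.3 in TNFR2+ and at most 1.14 in TNFR2- Tregs. *Bank1* and *Ebf1* went the other way, with overlap (log2 fold changes −1.005 and −0.425). So did the mean of *Pax5*, under the filter, with 0 to 9.68 in the TNFR2+ and 1.04 to 41.5 in the TNFR2- libraries. *Cd79b* (log2 fold change 0.94, adjusted p = 0.528) and *Ighd* (1.37, adjusted p = 0.162) were higher in TNFR2+ Tregs with overlap and did not pass the threshold. *Cd79a*, a defining gene of B cells, was at or near 0 in every library, at 0 to 2.90 and 0 to 6.10. *Ms4a1* had 45.0 to 79.9 and 19.6 to 99.4. The part of these transcripts in the receptor values was not tested.

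Of 18 myeloid markers 9 had values, with sums of 1359 to 1715 in the TNFR2+ and 1088 to 1533 in the TNFR2- libraries, most of it *Ctss*. Of 10 dendritic cell markers 6 had values and summed to 264 to 447 and 335 to 695, and *Xcr1* is one of them. Of 12 cytotoxic lymphocyte markers 9 had values, with sums of 167 to 336 and 146 to 196, and *Nkg7* among them was higher in TNFR2+ Tregs (log2 fold change 3.19, adjusted p = 0.00927), while *Prf1* was at −1.09 (adjusted p = 0.572), *Klrg1* at 0.99 (adjusted p = 0.3005), *Eomes* at 0.11 and *Cd8b1* at 0.04, and the other 4 were under the filter. Erythroid markers (2 of 9 with values) summed to at most 70.7 and 43.3, and the 1 of 6 platelet markers with values to at most 221 and 178. The follicular Treg markers, which include *Cxcr5*, all had values, 8 of 8, and summed to 3137 to 3923 and 1473 to 2865. Of these, *Pdcd1* had 549, 608, 648 and 375 normalized counts in TNFR2+ replicates 1 to 4 and 227, 120, 275 and 76.2 in TNFR2- replicates 1 to 4 (log2 fold change 1.78, adjusted p = 0.00801), *Icos* rose by 0.99 (adjusted p = 0.00669), and *Bcl6*, the factor that defines follicular T cells, had 0.30 (adjusted p = 0.325).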

How the data were processed

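RNA was sequenced from 8 sorted Treg samples of 100000 cells each. The authors trimmed reads with Trim Galore, quantified transcripts with Salmon 1.3.0 on the Ensembl GRCm38 transcriptome and normalized with DESeq2 1.28 in R 4.0. The deposited values are this normalized signal per gene (normalized counts, not logged), and how transcripts were summed to genes is not given in the sources used here. All 8 columns were used and mapped to groups by the sample titles.

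Symbols, coordinates and exon lengths came from GENCODE vM21 (20008 of 20172 identifiers matched). Low values fell on whole multiples of a step (within 0.1) in 69.7% to 96.5% of cases per library among 2806 long single-transcript genes, which gave the estimated depth. Reads were not recovered for other genes, so no count model was fitted. On the scale log2(normalized count + 1), the 13990 genes whose mean reached 10 were tested with limma 3.58.1 in R 4.3.3 (intensity trend, two-sided, Benjamini-Hochberg, threshold 0.05). Overlaps with other genes and near copies were searched in the annotation and with blastn 2.17.0. None of the 9 receptors had a copy of at least 95% identity over 50% of its transcript. The fit was tested on simulated data with 200 genes changed, each with a mean of at least 50. It called 39% of the 2-fold and 86% of the 4-fold changes, and 4.58% of its calls were false. A gene that did not pass the threshold can thus still differ 2-fold.

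The 9 receptors and all gene lists were chosen with earlier results of these data known, so no set test was run. Named genes are the 9 receptors, the sort and cell type checks, the genes of each list past the threshold (at most 12 a list), ligands of the receptors and the 3 genes nearest each receptor. Genes named beyond these (*Ccr9*, *Cx3cr1*, *Itgb1*, *Itgb7*, *Ptger4*, *Gnai2* and single markers) were chosen after their values were seen. The motifs were written after the gene results were known. Alternatives were the pseudocount (0.5 or 4), the filter (none, or a mean of 50), no intensity trend, another scaling, array weights, a replicate block and leaving out each library. Of the list genes, 2 are counted but not reported singly here.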

Additional observations from a re-analysis of the deposited data

Results flagged for a closer look

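Dixon's gap ratio (the gap of the most extreme library to its nearest neighbor over the range of the group) was computed in 76 combinations of gene and group, and 4 passed Dixon's 95% critical value, where chance passes about 1 in 20. None was one of the 9 receptors. *Selplg* in TNFR2+ Tregs (gap ratio 0.925) had 1502 normalized counts in replicate 2 and 1143 to 1170 in the others. *Itgav* in TNFR2+ Tregs (0.866) had 4102 in replicate 3 and 3273 to 3384 in the others. *Cxcl2* was low in replicate 4 of both groups, with 45.9 against 95.8 to 105 in TNFR2+ Tregs (0.842) and 2.22 against 24.4 to 25.8 in TNFR2- Tregs (0.942).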

How the results depend on the processing

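Of the 9 receptors, *Ccr8*, *Cxcr3* and *Cxcr4* passed the threshold in all 9 alternatives that kept every library and in all 8 fits that left one out. *Ccr6* lost it with the replicate block (adjusted p = 0.0570), without the filter on low values and in 6 leave-one-out fits, and *Ccr7* lost it without the intensity trend. *Ccr2* turned positive in 3 leave-one-out fits, over a range of −0.32 to 0.26. Leaving out single libraries gave 3 to 5 receptors higher. The median of the lymphoid-homing receptors was −0.064 with *Cxcr4* moved, and that of the tissue-homing receptors was 1.29 with a mean of at least 50, since *Ccr2* and *Cxcr6* then drop out. Without the intensity trend 465 of all genes passed in place of 1107, and 0 receptors were lower, 1 gene of the wider family was lower (*Ccr9*), 2 recirculation genes were higher, 0 ligand genes were higher, and 0 signalling genes were higher and 1 lower. The count of higher ligand genes was 0 with a pseudocount of 0.5 or a mean of at least 50, and 2 with array weights or the replicate block. With each library left out, the counts were 636 to 1324 for all genes, 1 to 2 for the wider family lower, 5 to 10 for recirculation genes higher and 5 to 8 lower, 0 to 2 for ligand genes higher, and 2 to 6 for signalling genes higher. For all genes the lowest count came without TNFR2+ replicate 2, and 693 and 711 came without TNFR2+ replicate 3 and TNFR2- replicate 2. The wider family had 1 lower without TNFR2+ replicates 1, 2 or 3 or TNFR2- replicate 2. Recirculation genes had 5 higher without TNFR2+ replicate 2 and 5 lower without TNFR2- replicate 2, and signalling genes had 2 higher without TNFR2+ replicate 2. Ligand genes had 0 higher without TNFR2+ replicates 1, 2 or 3 or TNFR2- replicates 1 or 2, and 2 without TNFR2- replicate 3. The causes were not tested. The labels do not state whether libraries with the same replicate number came from the same mouse. Such libraries did not deviate together (correlations −0.04 to 0.0005, and 0 of 4 correlated best with its own number). With 4 libraries a group this does not settle whether they shared a mouse. In the main fit the number was taken as a name. The replicate block gave 675 genes higher and 508 lower, against 633 and 474. With the block *Xcr1* (adjusted p = 0.0696) and *Rap1a* (0.0537) lost their calls and *Cxcl10* gained one (0.0203). *Ccr2* and *Cxcr6*, the receptors with the lowest counts, had the widest intervals of the 9, and what depth and the spread between libraries each add to them was not tested.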
